A study of Homo sapiens with 12 samples.

Results

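The Rb1 knockdown was read in OVCAR-3, an established human cell line from high-grade serous ovarian carcinoma, by setting the 3 arrays from cells given Rb1 siRNA (siRb1) against the 3 arrays from cells given control siRNA (control). These are 6 of the 12 arrays of the series, taken by their labels and paired by their replicate numbers. The other arrays hold 3 samples given Oct4 siRNA (siOct4) and 3 given Ccnf siRNA together with Nipp1 siRNA (siCcnf+siNipp1). All groups shared the cell line, a serum and insulin medium, the lipid reagent and the harvest time of 72 hours, and siRNA sequences and amounts were not stated in the labels used here. The knockdown is thus a transient one in 1 line, read once, on Illumina HT-12 bead arrays. Of 20039 genes with a probe of their own, 10259 were tested, namely those with a probe whose detection p-value was under 0.01 on 3 or more of the 6 arrays.

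RB1 encodes the retinoblastoma protein, a pocket protein that binds E2F transcription factors and holds back the genes a cell needs to enter S phase. Cyclin D with CDK4 or CDK6, and cyclin E with CDK2, phosphorylate the protein and free E2F, while inhibitors such as p16 (from CDKN2A), p21 (CDKN1A) and p27 (CDKN1B) oppose these kinases. RBL1 and RBL2 encode the related pocket proteins p107 and p130, which with E2F4, E2F5 and the LIN proteins form the DREAM repressor complex. In serous ovarian carcinoma this pathway is often disabled, through RB1 itself or through a gain of CCNE1.

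The median signal of an array was 201.2 to 212 in the control group and 180.4 to 188.7 in the siRb1 group. Between 17068 and 17316 probes per array were detected in the control group and between 16403 and 16963 in the siRb1 group, so both measures were lower on every siRb1 array before normalization. After it, arrays of 1 group correlated at 0.986 to 0.989 across kept probes and arrays of different groups at 0.976 to 0.985. Of 14 markers of serous carcinoma and epithelium 12 were tested, among them PAX8, MUC16, SOX17 and EPCAM. None of 9 fibroblast markers could be tested. Of 7 leukocyte markers only CD68 was detected often enough, with control levels (normalized log2 values) of 10.37, 11.08 and 10.89 and siRb1 levels of 10.91, 11.38 and 10.84. Of 5 endothelial markers CDH5 and VWF were tested, with mean control levels of 9.99 and 9.09 and siRb1 levels of 9.82 and 8.69. None of these 3 genes was called different.

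Promoter sequences are shown for the gene groups on which the comparison turns, the E2F-driven genes, of which none passed the test, and the interferon and antigen presentation genes, of which several rose. RefSeq promoter windows on GRCh38.p14 run from 250 bases before to 50 bases after the annotated start, a length of 300 bases, and were available for 8315 of the 10259 genes tested. The E2F core was searched as TTTCCCGC, TTTGGCGC, TTTCGCGC or TTTGCCGC on both strands, where a match on one strand can overlap a match on the other. It was found in 908 of 27305 promoters (3.33%), in 468 of the 8315 genes tested (5.63%) and in 19 of 36 E2F-driven G1/S genes (52.8%). Capitals mark the matches, and all sequences read 5′ to 3′ along the gene. E2F1 is itself such a target, MCM6 and MCM3 encode subunits of the replicative helicase, and CDT1 encodes the protein that loads the helicase. The E2F1 window lies at chr20:33686386-33686438 (minus strand), MCM6 at chr2:135876502-135876615 (minus), CDT1 at chr16:88803734-88803781 (plus) and MCM3 at chr6:52284889-52284936 (minus).
E2F1: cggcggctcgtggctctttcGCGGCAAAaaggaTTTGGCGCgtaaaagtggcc
MCM6: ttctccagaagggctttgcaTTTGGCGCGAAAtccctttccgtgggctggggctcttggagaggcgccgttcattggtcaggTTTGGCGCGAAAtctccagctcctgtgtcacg
CDT1: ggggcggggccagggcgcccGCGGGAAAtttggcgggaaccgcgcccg
MCM3: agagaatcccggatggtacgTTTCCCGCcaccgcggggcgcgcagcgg

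A core of the interferon-stimulated response element (ISRE), the site bound by STAT and IRF factors, was searched as GAAANNGAAA on both strands, a search chosen after the values were seen. It was found in 996 of 27305 promoters (3.65%), in 222 of the 8315 genes tested (2.67%) and in 13 of 19 interferon response genes (68.4%). IFIT1 and OAS3 encode antiviral proteins, TAP1 a subunit of the peptide transporter and B2M the light chain of MHC class I. The IFIT1 window lies at chr10:89392487-89392549 (plus), OAS3 at chr12:112938311-112938473 (plus), TAP1 at chr6:32853803-32853858 (minus) and B2M at chr15:44711353-44711408 (plus). A match describes letters in the window and shows no binding.
IFIT1: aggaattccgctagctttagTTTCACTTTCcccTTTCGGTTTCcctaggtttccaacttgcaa
OAS3: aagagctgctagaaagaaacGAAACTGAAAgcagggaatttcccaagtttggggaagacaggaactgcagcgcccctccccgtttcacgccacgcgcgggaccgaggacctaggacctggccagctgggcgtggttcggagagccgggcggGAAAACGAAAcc
TAP1: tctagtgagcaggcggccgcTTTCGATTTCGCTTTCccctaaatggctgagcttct
B2M: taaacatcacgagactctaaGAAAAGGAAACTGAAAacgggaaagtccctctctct

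RB1 was the first check of the labels. Its single probe gave signals of 413.2, 315.8 and 423.7 on the control arrays, each detected at a p-value of 0.0013. On the siRb1 arrays it gave 200, 182.2 and 195.1, with detection p-values of 0.0377, 0.126 and 0.0844, so that it was not detected at 0.01 on any of them. The groups did not overlap. On the normalized log2 scale the levels were 7.85, 7.33 and 8.11 against 6.11, 5.67 and 5.82, a fitted difference of -1.89 ± 0.14 (SE, n = 3 pairs; 95% interval -2.22 to -1.57, adjusted p = 0.000709 by limma). Because the siRb1 signal was below detection, the change is given as at least 2.22-fold lower, from the control mean over the lowest detected level of each siRb1 array. The exact permutation test of 3 arrays against 3 gave p = 0.1, the smallest it can give. In RNA from a whole culture, fewer cells with a transcript and less of it per cell cannot be told apart.

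The size of the RB1 difference rested on the background model: without background correction it was -0.85, and from the authors' normalized values -0.88. The nearest tested genes on either side of RB1 were not called: ITM2B differed by -0.22 (adjusted p = 0.352) and RCBTB2 by -0.41 (adjusted p = 0.089). RB1 was at least 1.45-fold lower in siRb1 than in siOct4 (adjusted p = 0.000221) and at least 2.88-fold lower than in siCcnf+siNipp1 (adjusted p = 2.35e-05), both again as bounds.

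Across the genome 969 of 10259 genes (9.45%) were called at an adjusted p under 0.05, with 570 higher (5.56%) and 399 lower (3.89%) in siRb1. At the level of probes, 1398 of 17113 were called (8.17%), of which 186 have no gene in the platform table. Of the called genes 441 changed by under 1.5-fold and 152 by 2-fold or more, 93 higher and 59 lower. The median absolute log2 difference was 0.62 for called genes and 0.17 for all genes. All 969 had the same sign in 3 of 3 pairs, and 904 had groups that did not overlap, while 2871 of all genes tested (28%) had groups that did not overlap. A gene undetected on all arrays of 1 group entered the test only through the group where it was high, so it had to differ: 28 of 31 genes undetected on all control arrays and 26 of 51 undetected on all siRb1 arrays were called, against 850 of 9340 genes detected on all 6 arrays. For those genes, RB1, PAPPA, LIN28A and FAS among them, the adjusted p printed beside a bound is no independent support. Their calls within the list counts below are no support either.

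Leaving out the 4 arrays numbered 3 left 0 genes called by limma, with 1330 at an unadjusted p under 0.05. Leaving out those numbered 2 gave 86 higher and 41 lower, of which 80 and 39 were among the 969. Without a replicate block 274 were higher and 155 lower, and those 274 and 155 were all among the 969. Every call against control given below was therefore lost without the arrays numbered 3. Of the 102 named genes that were called, 41 kept the call whichever single siRb1 or control array was left out and 64 kept it without the block.

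**Figure D1:**
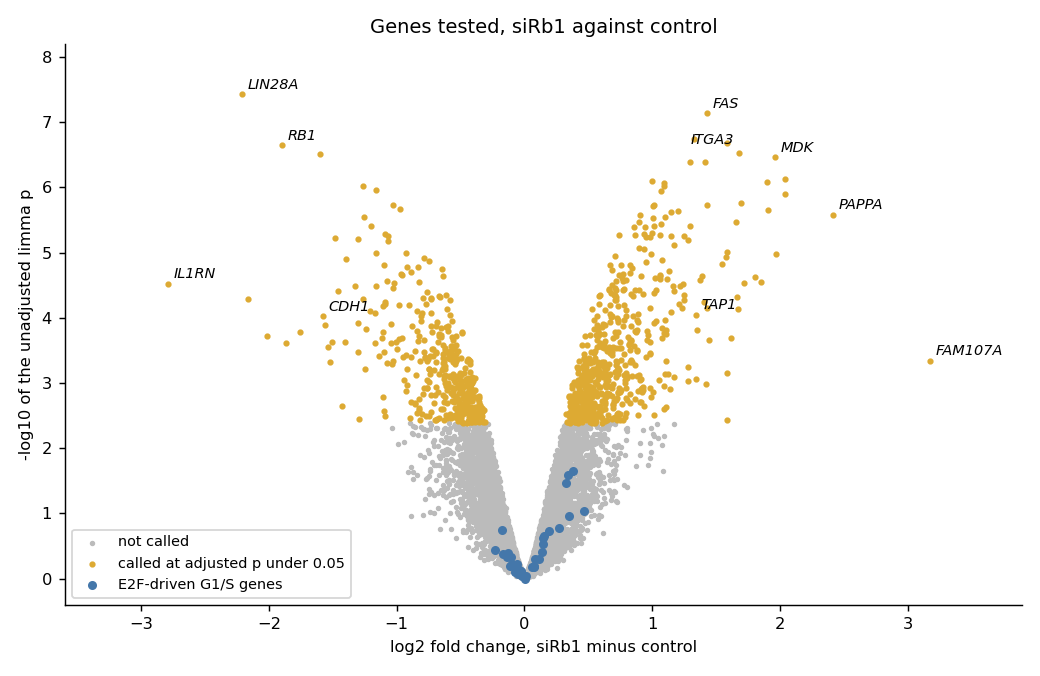
Log2 difference between siRb1 and control (x axis) against -log10 of the unadjusted limma p (y axis) for the 10259 genes tested, 969 called genes in yellow and the 38 E2F-driven G1/S genes in blue. RB1 and LIN28A lie at the upper left and FAS, ITGA3 and MDK at the upper right, while all blue points lie between -0.23 and 0.47.

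Among the cell cycle genes that RB1 is known to hold back, none of the 38 E2F-driven G1/S genes tested was called, beside 9.45% of all genes. Their median difference was -0.01 against 0.001 for all genes, and the members ran from -0.23 for E2F1 to 0.47 for ASF1B, a histone chaperone. For 37 of the 38 the 95% interval lay within 1 log2 unit of 0, so a doubling or halving lay outside it. At an unadjusted p under 0.05 there were 3 members, beside 2736 of all 10259 genes tested. They were NASP, a histone chaperone (0.38, adjusted p = 0.13), DNMT1, the maintenance DNA methyltransferase (0.34, adjusted p = 0.141), and USP1, a deubiquitinase of DNA repair (0.33). The sign of this near-zero median turned in 5 of 22 alternatives.

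TYMS, thymidylate synthase, had levels of 13.69, 13.48 and 13.36 in control and 13.68, 13.40 and 13.45 in siRb1, a difference of 0.00 ± 0.10. CCNE1, the cyclin E gene, had 11.27, 11.09 and 11.10 against 11.44, 11.09 and 10.97, a difference of 0.01 ± 0.10. PCNA, the sliding clamp of DNA polymerase, had 12.72, 12.85 and 13.26 against 12.97, 12.92 and 13.17, a difference of 0.08 ± 0.12. The groups overlapped in each of these genes. TK1, thymidine kinase (-0.02), MCM2 (-0.06), CDT1 (0.07) and the proliferation marker MKI67 (0.31 ± 0.26, adjusted p = 0.503) likewise gave no call, and their groups overlapped.

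Among the 19 genes of the RB family, the E2F factors and DREAM, RB1 was the only call, beside 9.45% of all genes. The other pocket protein genes gave -0.07 ± 0.25 for RBL1 and -0.32 ± 0.13 for RBL2 (adjusted p = 0.177). E2F1 had control levels of 7.66, 7.59 and 8.57 and siRb1 levels of 7.68, 7.39 and 8.06, with overlapping groups. The activator genes E2F2 and E2F3 differed by -0.04 and 0.04, and the repressor genes E2F4, E2F5 and E2F6 by 0.01, 0.18 and -0.03. E2F7, an atypical repressor that E2F itself drives, had 8.83, 9.09 and 9.05 in control and 9.36, 9.49 and 9.55 in siRb1. Its groups did not overlap, yet the difference of 0.48 ± 0.26 gave an adjusted p of 0.299. E2F7 was called in 1 of 22 alternatives, the fit of the 6 arrays alone with replicate block (adjusted p = 0.0392 by limma).

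Of 16 cyclin, CDK and inhibitor genes tested, 1 was called, beside 9.45% of all genes. It was CCNA1, the cyclin A gene best known from the male germline. CCNA1 fell from 11.55, 11.72 and 12.09 in control to 10.50, 9.81 and 10.46 in siRb1, with no overlap and a difference of -1.53 ± 0.29 (adjusted p = 0.0152). Over the 6 fits that left out 1 array its adjusted p ran from 0.026 to 0.085, and the call was lost without control replicate 2 or 3 or siRb1 replicate 2 or 3. CCNA2, the cyclin A gene of dividing cells, differed by -0.02 ± 0.15. CCND1 (0.06), CCND3 (0.18), CDK2 (0.01), CDK4 (-0.05), CDKN1A (0.09), CDKN1B (0.18) and CCNF (0.09) were not called either. A second probe of CDKN1B was called higher, by 0.44 (adjusted p = 0.0255). CDKN2A differed by 0.35 ± 0.15 (adjusted p = 0.196). CCND2, CCNE2, CDK6 and SOX2 were detected on 0 of the 6 arrays, and CDKN2C was not analysed here.

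SKP2 encodes the F-box protein that marks p27 for degradation. Its levels were 13.60, 13.45 and 13.33 in control and 12.99, 12.97 and 12.78 in siRb1. The siRb1 arrays were all lower, with a difference of -0.54 ± 0.14 and an adjusted p of 0.0508, just short of the threshold, and the gene passed it in 6 of 22 alternatives.

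**Figure D2:**
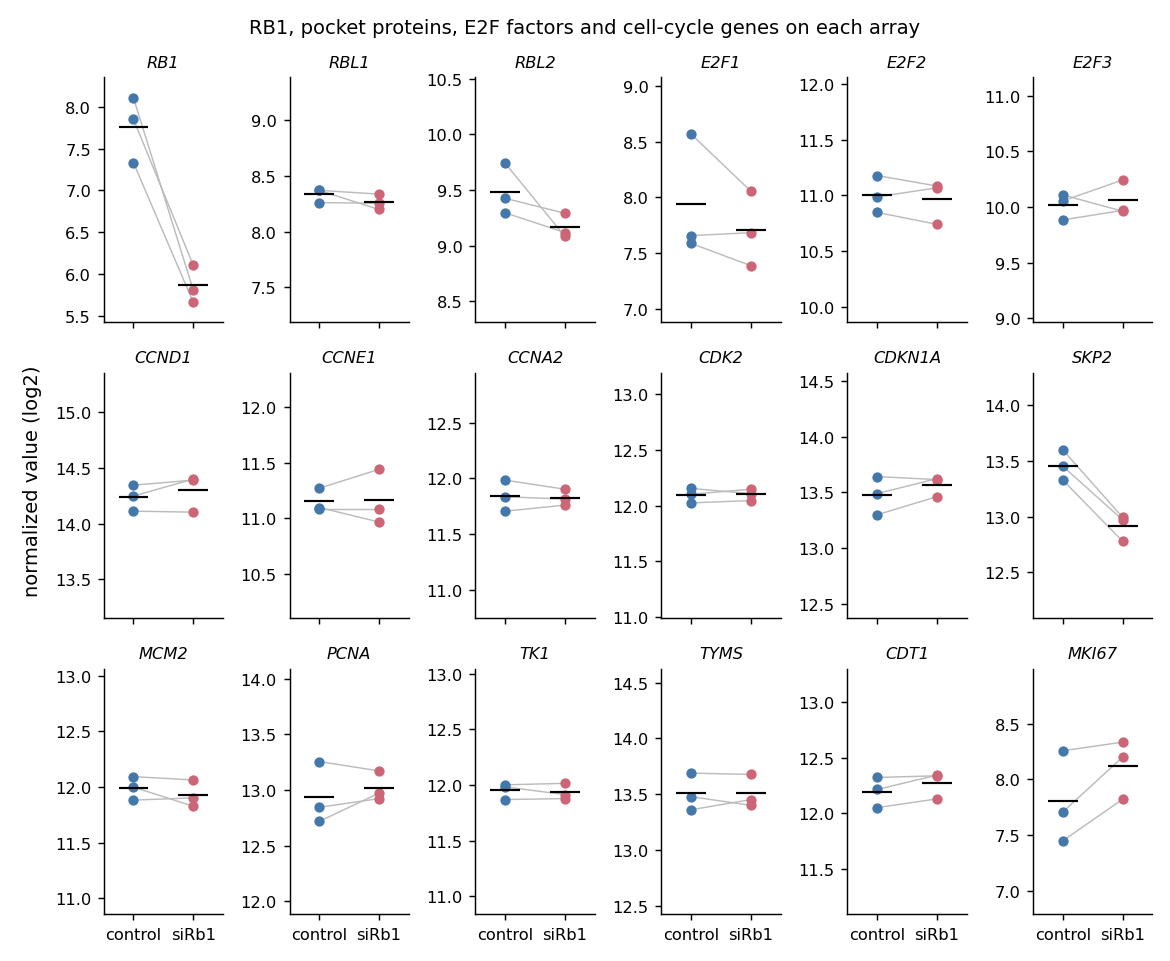
Normalized log2 level on each of the 3 control and 3 siRb1 arrays for RB1 and genes of its pathway, each panel with its own y axis, grey lines joining arrays of the same replicate number and black bars marking group means. RB1 drops in all 3 pairs to between 5.67 and 6.11, and TYMS, TK1, PCNA and MCM2 overlap between groups.

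Of 39 G2/M and mitotic genes 0 were called by limma and 0 had an unadjusted p under 0.05. Of all 10259 genes tested 9.45% were called and 2736 had an unadjusted p under 0.05. The median difference of the list was 0.02, and all 39 intervals lay within 1 log2 unit of 0. PLK1, the mitotic kinase, had the largest difference of the list, 0.40 ± 0.20 (adjusted p = 0.26). Of 25 replication fork genes 1 was called, RFC3, a subunit of the clamp loader, which fell by 0.52 on the log2 scale (adjusted p = 0.0238) with overlapping groups. Its call was lost in each of the 6 fits that left out 1 array, where adjusted p ran from 0.0569 to 0.117. Of 10 apoptosis genes linked to E2F 0 were called by limma, with 1 at an unadjusted p under 0.05. Of the 468 genes tested whose promoter holds the E2F core shown above, 24 were called higher (5.13%) and 14 lower (2.99%), with a median of -0.03, beside 5.56% and 3.89% of all genes.

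Set directly against the other knockdowns in the same model, 42% of all genes differed between siRb1 and siOct4 (22.2% higher in siRb1, 19.9% lower) and 44.1% between siRb1 and siCcnf+siNipp1 (23.4% higher, 20.7% lower). Of the 38 E2F-driven genes 36 were higher in siRb1 than in siOct4, by a median of 1.00 (0.99 with the 2 members undetected in siOct4 at their bound), and 37 were higher than in siCcnf+siNipp1, by a median of 1.05. Of the 39 mitotic genes 37 and 38 were higher, by medians of 1.29 and 1.18. None of either list was lower. TYMS was higher in siRb1 by 1.00 than in siOct4 (adjusted p = 0.00014) and by 1.11 than in siCcnf+siNipp1 (adjusted p = 8.97e-05). MKI67, which no siOct4 array detected, was at least 2.88-fold higher than there (adjusted p = 0.000307), and it was higher than in siCcnf+siNipp1, where 2 of 3 arrays detected it, by 1.41 (adjusted p = 0.00216). Against the control arrays, which all 3 knockdowns share, CCNA2 differed by -1.44 in siOct4, by -1.38 in siCcnf+siNipp1 and by -0.02 in siRb1.

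**Figure D3:**
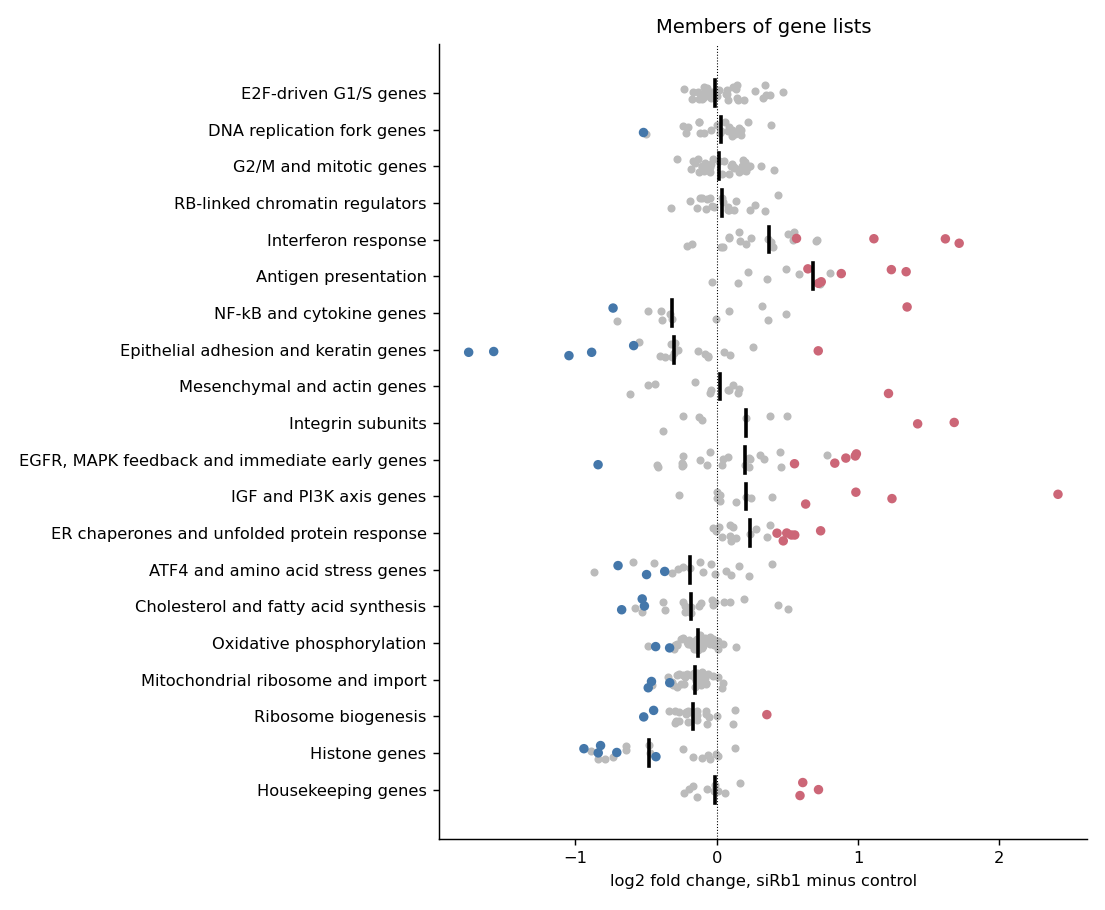
Log2 difference between siRb1 and control (x axis) of the tested members of the gene lists shown, with members called higher in red, called lower in blue and not called in grey, and a bar at each list median. The G1/S and mitotic lists gather near 0, while antigen presentation and interferon genes lie mostly above 0 and histone genes mostly below it.

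By the fitted difference the 15 largest rises were FAM107A, PAPPA, IRX3, SLAIN1, ZNF467, MDK, VTCN1, ADAM19, TMSB15A, HTRA1, IFIT2, SHISA3, ITGA3, RPS6KA2 and EBI3. In all 15 the siRb1 arrays lay above the control arrays without overlap, and 904 of all 969 called genes had groups that did not overlap. PAPPA, SLAIN1, SHISA3 and RPS6KA2 were undetected in control, so their place in this order was not measured. Of the others, all but FAM107A kept the call whichever single array was left out.

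MDK encodes midkine, a heparin-binding growth factor of the embryo and of many carcinomas. Its levels rose from 10.42, 10.21 and 9.57 to 12.02, 12.12 and 11.94, a difference of 1.96 ± 0.16 (3.89-fold, adjusted p = 0.000709). The difference from siOct4 was 0.05 (adjusted p = 0.838), and MDK was higher in siRb1 than in siCcnf+siNipp1 by 1.28 (adjusted p = 0.000294).
ITGA3, the integrin alpha 3 subunit that binds laminin, rose from 9.33, 9.67 and 9.19 to 10.96, 11.29 and 10.98, by 1.68 ± 0.13 (3.21-fold, adjusted p = 0.000709). The siRb1 level stayed below that in siOct4 by a difference of -0.47 (adjusted p = 0.0189).
VTCN1, the immune checkpoint ligand B7-H4 found on ovarian carcinomas, rose from 8.23, 8.96 and 7.98 to 10.15, 10.54 and 10.21, by 1.91 ± 0.19 (adjusted p = 0.0012). It was higher in siRb1 than in siOct4 by 1.18 (adjusted p = 0.00116) and than in siCcnf+siNipp1 by 1.42 (adjusted p = 0.000435).

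IRX3, a homeobox factor of embryonic patterning, rose from 11.06, 11.18 and 10.27 to 12.56, 13.31 and 12.76, by 2.04 ± 0.18 (4.11-fold, adjusted p = 0.000956). Its control level in replicate 3 was the low one, and the groups were still apart. IRX3 was higher than in siOct4 by 2.01 (adjusted p = 7.68e-05), while the difference from siCcnf+siNipp1 was 0.07 (adjusted p = 0.794). ZNF467, a zinc finger factor, rose by 1.97 ± 0.23 (adjusted p = 0.00223) and ADAM19, a membrane metalloprotease detected on 2 of 3 control arrays, by 1.90 ± 0.17 (adjusted p = 0.000956). HTRA1, a secreted serine protease also detected on 2 control arrays, rose by 1.81 ± 0.23 and EBI3, a subunit of interleukin 27 and interleukin 35, by 1.67 ± 0.24 (adjusted p = 0.00325 and 0.00446).

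The changes of those 4 genes, undetected on all 3 control arrays, are bounds. These genes passed the detection filter only through the siRb1 arrays, so an adjusted p against control is no independent support. PAPPA, a secreted protease that cleaves insulin-like growth factor binding proteins, had siRb1 levels of 7.43, 8.88 and 8.29 and was at least 3.21-fold higher (adjusted p = 0.00128). RPS6KA2, a ribosomal S6 kinase downstream of ERK, was at least 2.85-fold higher, SHISA3 at least 2.18-fold and SLAIN1, a microtubule-associated protein whose promoter holds an E2F core, at least 2.09-fold. No siOct4 array detected PAPPA either, which was at least 3.06-fold higher in siRb1 than there (adjusted p = 0.000104), and was higher in siRb1 than in siCcnf+siNipp1 by 1.31 (adjusted p = 0.00234), whereas RPS6KA2 was lower than in both other knockdowns, by differences of -1.14 (adjusted p = 0.00594) and -1.46 (adjusted p = 0.0016).

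TMSB15A, a thymosin that binds actin monomers, rose from 7.33, 7.38 and 7.48 to 9.01, 9.11 and 9.64, by 1.86 ± 0.25 (adjusted p = 0.00353). The near-identical TMSB15B was also called higher, by 1.35 ± 0.22 (adjusted p = 0.00862), and the probes may not tell these genes apart. TMSB15A was higher in siRb1 than in siOct4, where 1 of 3 arrays detected it, by 2.76 (adjusted p = 8.26e-05). It was at least 6.06-fold higher than in siCcnf+siNipp1, where no array detected it (adjusted p = 2.17e-05). FAM107A, a stress-responsive actin regulator, gave the largest fitted rise, 3.18 ± 0.60 (adjusted p = 0.0151). Its control levels of 10.11, 8.07 and 7.54 spread more than its siRb1 levels of 12.23, 11.62 and 11.39. Over the 6 fits that left out 1 array its adjusted p ran from 0.0182 to 0.0824, and the call was lost without control replicate 3, siRb1 replicate 2 or siRb1 replicate 3.

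**Figure D4:**
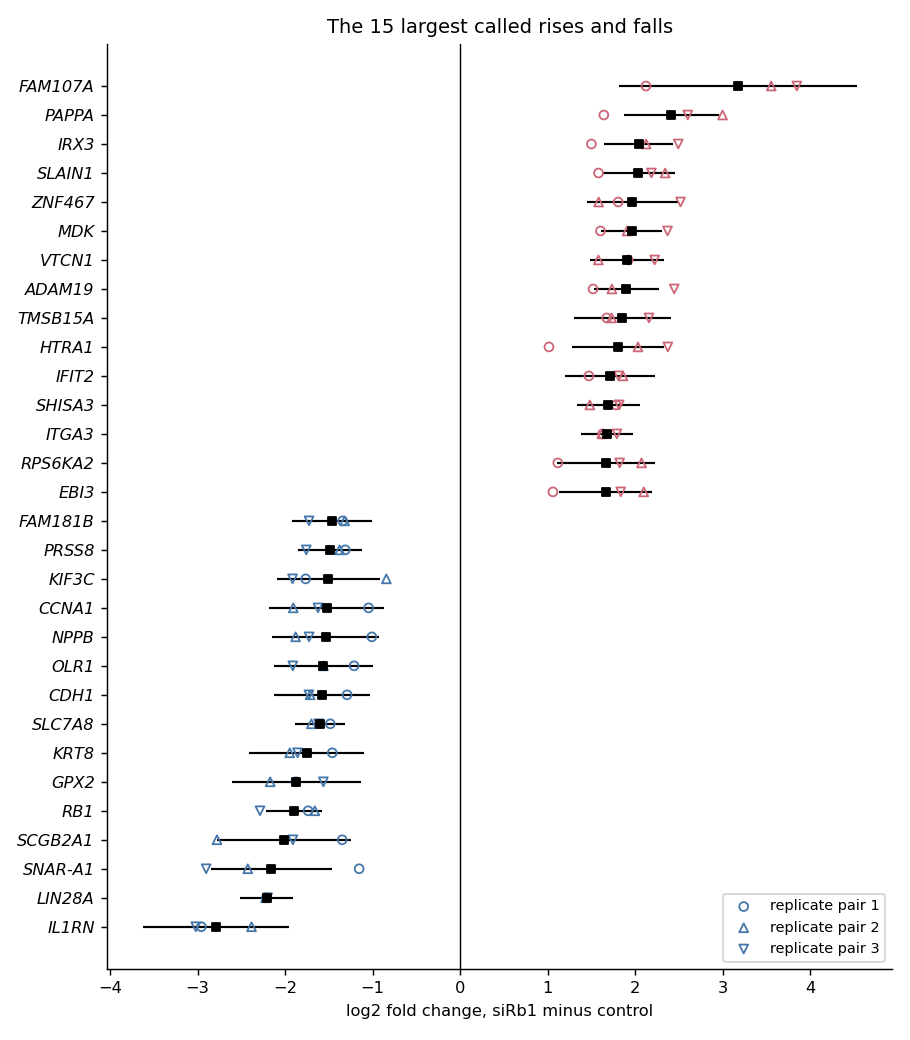
Log2 difference between siRb1 and control with its 95% interval for the 15 largest rises and the 15 largest falls among called genes, with the difference within each of the 3 replicate pairs as points. All 3 pairs of every gene lie on the same side of 0 because the genes were chosen by that rule, so this is no separate support. The widest interval is that of FAM107A (1.82 to 4.53).

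By the fitted difference the 15 largest falls were IL1RN, LIN28A, SNAR-A1, SCGB2A1, RB1, GPX2, KRT8, SLC7A8, CDH1, OLR1, NPPB, CCNA1, KIF3C, PRSS8 and FAM181B. IL1RN, LIN28A, SCGB2A1, RB1, KRT8, NPPB and FAM181B were undetected on all siRb1 arrays, so their place in this order was not measured. The bounds of RB1, KRT8, NPPB and FAM181B are smaller than the fall of ADM below. The groups did not overlap in any of the 15, beside 904 of all 969 called genes without overlap. LIN28A, an RNA-binding protein of stem cells that blocks let-7 maturation, had control levels of 7.76, 7.78 and 7.99. None of the siRb1 arrays detected it, which makes it at least 2.35-fold lower (adjusted p = 0.000625). It passed the detection filter only through the control arrays, so that p is no independent support. No array of siOct4 or siCcnf+siNipp1 detected it either, so the knockdowns cannot be compared for this gene. IL1RN, the interleukin 1 receptor antagonist, was at least 2.44-fold lower (adjusted p = 0.00359).

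SCGB2A1, the secretoglobin mammaglobin B, was at least 2.51-fold lower (adjusted p = 0.00931), and NPPB, the natriuretic peptide B precursor, at least 1.51-fold (adjusted p = 0.0117). SLC7A8, an amino acid transporter, fell from 9.41, 9.50 and 9.44 to 7.92, 7.80 and 7.83, by a difference of -1.60 ± 0.13 (3.03-fold, adjusted p = 0.000709). The spread within either group was a small part of that gap. PRSS8, the epithelial protease prostasin, fell from 10.33, 10.57 and 10.71 to 9.02, 9.19 and 8.96, by -1.48 ± 0.16 (adjusted p = 0.00165). It was lower than in siCcnf+siNipp1 by -1.89 (adjusted p = 7.75e-05), and the difference from siOct4 was -0.34 (adjusted p = 0.121).

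OLR1, the oxidized LDL receptor, fell by 1.56 on the log2 scale (adjusted p = 0.00784) and lay above its siOct4 level (adjusted p = 7.44e-05), which 1 of 3 arrays detected. GPX2, a glutathione peroxidase of epithelia, fell by 1.87 (adjusted p = 0.0107) and KIF3C, a kinesin, by 1.51 (adjusted p = 0.0106). FAM181B was at least 1.41-fold lower (adjusted p = 0.00411). SNAR-A1, one of many near-identical copies of a small noncoding RNA, fell from 13.10, 13.20 and 12.96 to 11.95, 10.78 and 10.06, and its reading is uncertain because the probe may read several copies. Over the fits without 1 array, the highest adjusted p was 0.0574 for GPX2, without siRb1 replicate 2 or 3, 0.0622 for KIF3C and 0.055 for SCGB2A1. The KIF3C call was lost without control replicate 3 or siRb1 replicate 3, that of SCGB2A1 without control replicate 3, and that of NPPB (0.0198 to 0.0654) without control replicate 3 or siRb1 replicate 2 or 3.

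Epithelial genes were among the falls. Of 21 epithelial adhesion and keratin genes tested, 5 fell (CDH1, KRT8, OVOL2, EPCAM and KRT18), beside 3.89% of all genes. KRT8 entered the test only through the control arrays, so its call is no independent support for that count. The 1 that rose, beside 5.56% of all genes, was CLDN1, a tight junction claudin (0.72, adjusted p = 0.00465). The list median was -0.30, negative under all 22 alternatives. CDH1, which encodes E-cadherin of adherens junctions, fell from 10.37, 10.64 and 10.61 to 9.08, 8.93 and 8.88, by a difference of -1.58 ± 0.24 (2.99-fold, adjusted p = 0.00634). Even the highest siRb1 array lay well under the lowest control array. OVOL2, a factor that maintains epithelial identity, fell by 1.05 (adjusted p = 0.0106), EPCAM, an epithelial adhesion molecule, by 0.88 (adjusted p = 0.0331) and KRT18, a keratin of simple epithelia, by 0.59 (adjusted p = 0.0128). KRT8, the partner of KRT18, was at least 2.06-fold lower (adjusted p = 0.00882). It is read by 1 dim probe, and keratin 8 has many processed pseudogenes.

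CDH1 was higher in siRb1 than in siOct4 by 1.52 (adjusted p = 0.00125) and than in siCcnf+siNipp1 by 1.06 (adjusted p = 0.00712). OVOL2 was lower than in both (adjusted p = 0.000756 and 0.0159). Leaving out 1 array gave between 1 and 5 list members called lower, not always the same genes, with 1 without control replicate 3. EPCAM lost its call in each of those 6 fits (adjusted p from 0.0685 to 0.151), KRT8 without control replicate 3 (0.00708 to 0.0543), OVOL2 without control replicate 3 or siRb1 replicate 3 (0.0165 to 0.0606) and KRT18 without control replicate 3 or siRb1 replicate 2 or 3 (0.0289 to 0.0777). A second EPCAM probe was also called lower, by a difference of -0.95 (adjusted p = 0.0279).

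Of the 12 markers of serous carcinoma and epithelium tested, 4 fell, beside 3.89% of all genes. These were CDH1, KRT8, EPCAM and KRT18, already counted above, and the other 8 were not called. PAX8 (0.24 ± 0.08, adjusted p = 0.123), SOX17 (-0.19), MUC16 (-0.15), MSLN (0.21), FOLR1 (0.03) and MECOM (-0.19) did not pass the test. KRT7 differed by -0.55 (adjusted p = 0.0657) with overlapping groups. Of 12 mesenchymal and actin genes tested 1 rose, beside 5.56% of all genes, and the list median was 0.02. The gene was ACTA2, smooth muscle actin, which rose from 8.41, 7.88 and 7.90 to 9.49, 8.92 and 9.41 (1.21 ± 0.18, adjusted p = 0.00511). Of 9 integrin subunit genes ITGA3 and ITGB3 rose, beside 5.56% of all genes. ITGB3, by 1.42 ± 0.30 (adjusted p = 0.0238), lost its call without control replicate 3 or siRb1 replicate 1 or 2 (adjusted p from 0.0276 to 0.0981 over the fits that left out 1 array).

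Of 14 antigen presentation genes tested, 6 rose (beside 5.56% of all genes) and 0 fell, 13 of 14 differences were above 0, and the median was 0.68, positive under all 22 alternatives. TAP1 rose from 9.16, 8.71 and 8.62 to 10.24, 10.14 and 10.13, by 1.34 ± 0.21 (2.53-fold, adjusted p = 0.0062). The 3 siRb1 arrays agreed closely and lay above every control array. MR1, a class I-like molecule that presents microbial vitamin B metabolites, rose by 1.24 ± 0.18 (adjusted p = 0.00547). MICB, a ligand of the NKG2D receptor, rose by 0.74 ± 0.08 (adjusted p = 0.00165), TAPBP, the tapasin that bridges TAP1 and class I molecules, by 0.88 ± 0.16 (adjusted p = 0.0125), B2M by 0.72 ± 0.17 (adjusted p = 0.0314) and HLA-DMB, a class II chaperone, by 0.65 ± 0.15 with overlapping groups (adjusted p = 0.0294). A second B2M probe was also called higher, by 0.75 (adjusted p = 0.0106). The classical class I genes HLA-B (0.58, adjusted p = 0.311) and HLA-C (0.35, adjusted p = 0.295), whose alleles a probe can read unequally, were not called.

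Leaving out 1 array gave between 3 and 6 list members called higher, not always the same genes. There were 3 without control replicate 2, siRb1 replicate 2 or siRb1 replicate 3, and 3 without the replicate block. TAP1, MR1 and MICB kept the call in all 6 of those fits. TAPBP lost it without replicate 2 or 3 of either group (adjusted p from 0.00669 to 0.0711) and B2M in all but the fit without control replicate 1 (0.0115 to 0.143). In direct comparison 12 of the 14 genes were lower in siRb1 than in siOct4 (beside 19.9% of all genes) and 0 higher. Against siCcnf+siNipp1 8 were lower (beside 20.7%) and 2 higher. MICB was one of those 2, higher by 0.92 (adjusted p = 7.75e-05). TAP1 was lower than in both (adjusted p = 0.00277 and 0.00667).

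Of 22 interferon response genes tested, 4 rose (IFIT2, OAS3, IFIT1 and BST2) and 0 fell, beside 5.56% and 3.89% of all genes. OAS3 entered the test only through the siRb1 arrays, so its call is no independent support for that count. Of the 22 differences 20 were above 0, beside 5149 of 10259 over all genes, and the median was 0.37. IFIT1, an RNA-binding antiviral protein, rose from 8.46, 8.45 and 8.17 to 9.35, 9.41 and 9.67, by 1.11 ± 0.19 (2.16-fold, adjusted p = 0.00911). OAS3, which makes the activator of RNase L, had siRb1 levels of 7.60, 7.58 and 7.54, was undetected on all 3 control arrays and was at least 2.07-fold higher (adjusted p = 0.00987). IFIT2, a relative of IFIT1 detected on 1 of 3 control arrays, rose by 1.72 ± 0.23 (adjusted p = 0.00359). BST2, or tetherin, rose by 0.56 ± 0.10 (adjusted p = 0.0102). Set against siOct4, 11 of the 22 genes were lower in siRb1 (beside 19.9% of all genes) and 0 higher (beside 22.2%). Against siCcnf+siNipp1 6 were lower (beside 20.7%) and 3 higher (beside 23.4%).

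ISG15, a strongly interferon-driven gene, differed by 0.16 (adjusted p = 0.328), OAS1 by 0.03 and MX1 by 0.54 (adjusted p = 0.0967). Leaving out 1 array gave between 2 and 6 list members called higher, with 2 without control replicate 3 or siRb1 replicate 3. IFIT1 lost its call without siRb1 replicate 3 (adjusted p from 0.0108 to 0.0524 over the 6 fits), OAS3 without control replicate 3 or siRb1 replicate 2 (0.0214 to 0.0595) and BST2 without control replicate 3 or siRb1 replicate 3 (0.0204 to 0.0626). The 3 called genes with a promoter sequence (IFIT1, OAS3 and BST2) hold the ISRE core, as do 3 of the 6 called antigen presentation genes (TAP1, TAPBP and B2M). Of all 222 genes tested with that core, 21 were called higher (9.46%) and 7 lower (3.15%), beside 5.56% and 3.89% of all genes, with a median of 0.04. The 21 include IFIT1, OAS3, BST2, TAP1, TAPBP and B2M, whose values were seen before this search was chosen. The count is therefore no separate support. None of the 11 largest rises with a promoter sequence holds the ISRE core.

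TNF, the inflammatory cytokine, rose by 1.35 ± 0.28 (adjusted p = 0.0213), whereas NFKB2, which encodes the p100 precursor of a NF-kB subunit, fell by 0.73 (adjusted p = 0.00446). These were the calls among 13 NF-kB and cytokine genes, beside 9.45% of all genes. The list median was -0.31, though above 0 without control replicate 1 (0.09). The TNF call was lost without control replicate 3 or any 1 of the siRb1 arrays, with adjusted p from 0.0124 to 0.0829. TNF lay lower than in siOct4 by -2.92 (adjusted p = 0.000112).

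FAS, the death receptor through which immune cells trigger apoptosis, had siRb1 levels of 7.42, 7.38 and 7.66, was undetected on all 3 control arrays and was at least 1.95-fold higher (adjusted p = 0.000625). It was higher than in siOct4 by 0.54 (adjusted p = 0.00203) and lower than in siCcnf+siNipp1 by -0.34 (adjusted p = 0.0198). CDKN1A, the inhibitor gene listed above as not called, had levels of 13.64, 13.30 and 13.49 in control and 13.61, 13.46 and 13.62 in siRb1, with overlapping groups.

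**Figure D5:**
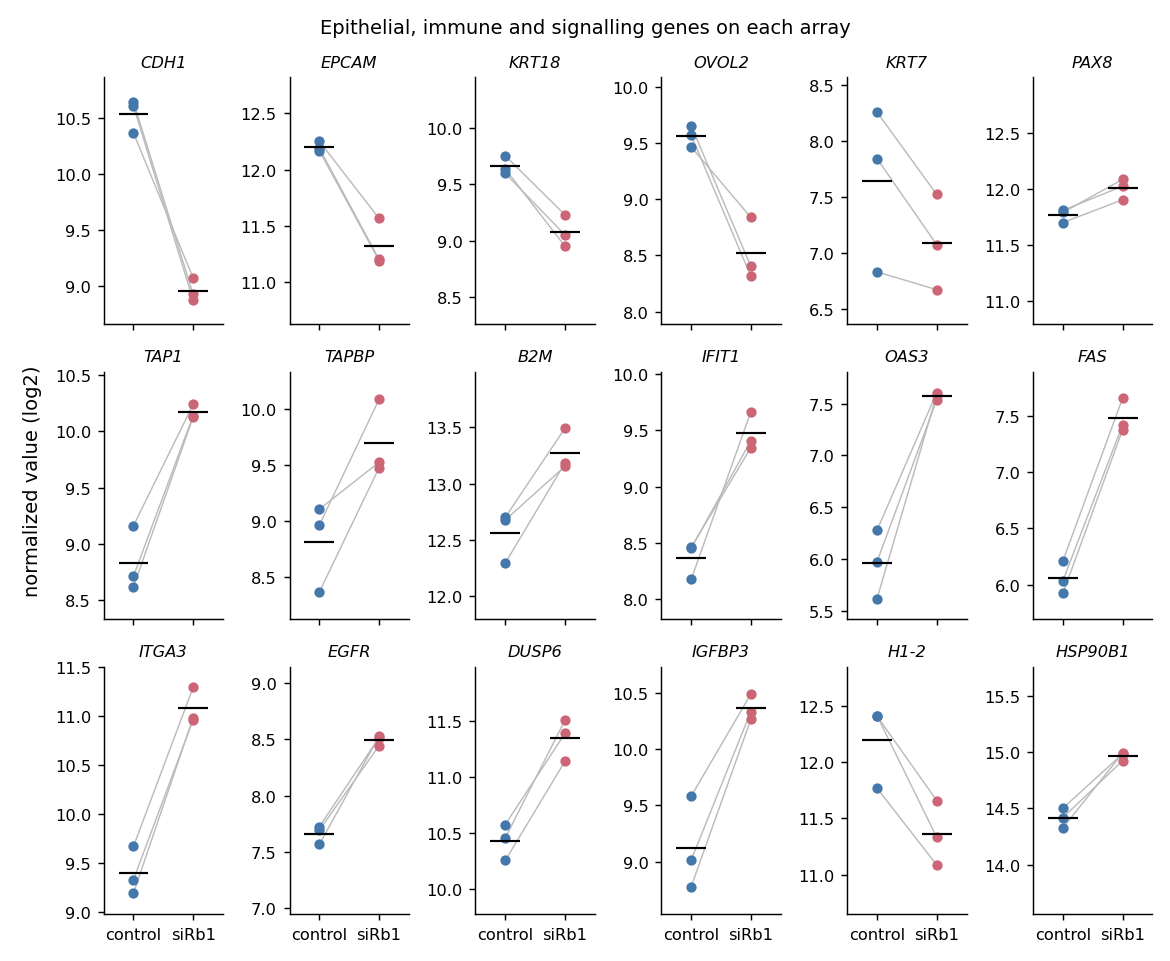
Normalized log2 level on each of the 3 control and 3 siRb1 arrays for epithelial, immune and signalling genes, each panel with its own y axis, grey lines joining arrays of the same replicate number and black bars marking group means. CDH1 falls and TAP1, OAS3, FAS and ITGA3 rise without overlap, while KRT7 overlaps between groups. OAS3 and FAS passed the detection filter only through the siRb1 arrays, so their separation is no support. Of all genes tested 28% had groups that did not overlap.

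Growth factor signalling genes rose in part. Of 13 genes of the IGF and PI3K axis 4 rose and 0 fell, beside 5.56% and 3.89% of all genes. The 4 were PAPPA and 3 binding proteins of insulin-like growth factor. PAPPA entered the test only through the siRb1 arrays, so its call is no independent support for that count. IGFBP3 rose from 9.58, 9.01 and 8.78 to 10.49, 10.34 and 10.27, by 1.24 ± 0.17 (2.36-fold, adjusted p = 0.00359), and IGFBP2 by 0.98 ± 0.15 (adjusted p = 0.00547). Both kept the call whichever single array was left out. IGFBP6 rose by 0.63 (adjusted p = 0.0306) with overlapping groups, and its adjusted p was 0.325 without the replicate block. That of IGFBP2 was 0.122. IGFBP3 was higher than in siOct4 by 0.69 (adjusted p = 0.00961) and differed from siCcnf+siNipp1 by -0.12 (adjusted p = 0.597).

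Of 27 EGFR, MAPK feedback and immediate early genes 5 rose and 1 fell, beside 5.56% and 3.89% of all genes, with a median of 0.20. SPRY2, an inhibitor of receptor tyrosine kinase signalling, rose from 10.54, 10.66 and 10.63 to 11.48, 11.72 and 11.58, by 0.98 ± 0.11 (1.97-fold, adjusted p = 0.00165). DUSP6, the phosphatase that switches off ERK, rose by 0.91 ± 0.12 (adjusted p = 0.0032), and the receptor genes EGFR and ERBB2 by 0.84 ± 0.14 (adjusted p = 0.0103) and 0.55 ± 0.11 (adjusted p = 0.0173). EGR1, an immediate early factor, rose by 0.99 ± 0.23 (adjusted p = 0.0295) and PHLDA1 fell by 0.84 (adjusted p = 0.0409). Leaving out 1 array gave between 2 and 5 list members called higher, with 2 without control replicate 3 or siRb1 replicate 2 or 3. SPRY2 and DUSP6 kept the call in each of these fits. EGR1 lost it in all such fits but the one without siRb1 replicate 1 (adjusted p from 0.0109 to 0.131), and PHLDA1 in all 6 (0.0652 to 0.177).

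AXIN2, a feedback target of WNT signalling, fell from 8.65, 8.98 and 8.79 to 7.78, 7.76 and 6.65, by a difference of -1.40 ± 0.24 (adjusted p = 0.0106), with the siRb1 array of replicate 3 well under the other two. The call was lost without control replicate 3 (adjusted p = 0.0625, the highest of the fits that left out 1 array, with 0.0167 the lowest). DKK3, a secreted dickkopf protein, rose by 0.99 ± 0.12 (adjusted p = 0.00223), and HES1, a Notch target, by 0.72 ± 0.14 with overlapping groups (adjusted p = 0.0152, and 0.435 without the replicate block). Among 20 matrix and protease genes 1 was called higher and 2 lower, beside 5.56% and 3.89% of all genes. PLAU, the urokinase protease, rose 2.15-fold (adjusted p = 0.00709). LAMB3, a laminin chain, fell 2.38-fold (adjusted p = 0.0175) and MMP1, the interstitial collagenase, was at least 1.21-fold lower (adjusted p = 0.0127). The last 2 lost the call without control replicate 1 or 3 or siRb1 replicate 2 or 3, with adjusted p from 0.0193 to 0.0861 and from 0.0147 to 0.0695.

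Of 21 histone genes tested, 5 fell (beside 3.89% of all genes) and 0 rose, 19 of 21 differences were below 0, and the median of -0.48 was negative under all 22 alternatives. H1-2, a linker histone gene, fell from 11.77, 12.41 and 12.41 to 11.09, 11.33 and 11.66, by a difference of -0.84 ± 0.14 (1.79-fold, adjusted p = 0.00878). Each siRb1 array was below each control array. H2AC18 fell by 0.94 (adjusted p = 0.0214), H2BC6 by 0.82 (adjusted p = 0.0311), H2BC12 by 0.71 (adjusted p = 0.0334) and H3-3B, a variant H3 gene expressed outside S phase, by 0.43 (adjusted p = 0.0151). Probes of clustered histone genes can read near-identical copies, so single members are uncertain. Leaving out 1 array gave between 1 and 4 list members called lower, with 1 without control replicate 3 or siRb1 replicate 2. Without the replicate block 1 was called. In direct comparison 14 of the 21 were lower in siRb1 than in siOct4 (beside 19.9% of all genes) and 5 higher. Against siCcnf+siNipp1 12 were lower (beside 20.7%) and 4 higher. H1-2 was lower than in siOct4 by -1.29 (adjusted p = 0.000183) and than in siCcnf+siNipp1 by -0.89 (adjusted p = 0.000985).

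Of 19 genes of endoplasmic reticulum chaperones and the unfolded protein response 6 rose and 0 fell, beside 5.56% and 3.89% of all genes. The list median was 0.23. HSP90B1, the chaperone GRP94, rose from 14.42, 14.50 and 14.33 to 14.93, 14.99 and 14.99, by 0.55 ± 0.10 (1.47-fold, adjusted p = 0.0125). CRELD2 (0.74), SDF2L1 (0.53), PDIA6 (0.50), MANF (0.47) and DNAJB11 (0.43), all resident or secreted folding factors, were also called. These rises were small, and 0 of the 6 were left without control replicate 3 or without siRb1 replicate 3. Cytosolic heat shock genes gave 0 calls of 13 by limma, with 1 at an unadjusted p under 0.05, beside 2736 of all 10259 genes tested.

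Stress and metabolic genes gave scattered calls. NQO1, a quinone reductase driven by NRF2, rose from 12.15, 11.71 and 11.68 to 12.99, 12.90 and 13.13, by 1.16 ± 0.16 (2.23-fold, adjusted p = 0.00372), and UGDH by 0.45 (adjusted p = 0.0214), among 17 NRF2 and xenobiotic genes in which GPX2 fell. UGDH lost its call in 5 of the 6 fits that left out 1 array (adjusted p from 0.0249 to 0.114). ADM, the peptide adrenomedullin that hypoxia induces, fell from 11.42, 11.65 and 11.72 to 10.35, 10.43 and 10.40, by a difference of -1.20 ± 0.13 (adjusted p = 0.00146). ADM was lower in siRb1 than in both other knockdowns, by -1.75 in each (adjusted p = 3.56e-05 for siOct4 and 3.64e-05 for siCcnf+siNipp1). CA12, a carbonic anhydrase also induced by hypoxia, rose by 0.94 ± 0.10 (adjusted p = 0.00165). Of 29 glycolysis and hypoxia genes tested 2 rose and 2 fell, beside 5.56% and 3.89% of all genes, with a median of -0.03.

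GABARAPL1, an autophagosome protein, fell from 10.51, 10.78 and 11.09 to 9.60, 9.61 and 9.69, by a difference of -1.16 ± 0.16 (adjusted p = 0.00372), and was lower than in siCcnf+siNipp1 by -2.64 (adjusted p = 1.73e-05). ATG16L1 was the other call among 26 autophagy and lysosome genes (-0.35, adjusted p = 0.0443) and was lost in all 6 fits that left out 1 array. Of 19 ATF4 targets 3 fell (PSPH by 0.70, VLDLR by 0.50 and SLC3A2 by 0.37), and of 23 cholesterol and fatty acid synthesis genes 3 fell (MVD by 0.67, MSMO1 by 0.53 and IDI1 by 0.51), beside 3.89% of all genes. Oxidative phosphorylation gave 2 falls of 36 (NDUFV1 by 0.43, NDUFB5 by 0.33), and mitochondrial ribosome and import genes 3 of 34 (MRPS2 by 0.48, MRPL4 by 0.46, MRPS22 by 0.33), beside 3.89% of all genes. Their medians were -0.14 and -0.16. Each of these calls against control other than GABARAPL1 was lost in at least 4 of the 6 fits that left out 1 array, with adjusted p up to 0.209.

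Lists on general cell functions gave few calls or none. Limma called 0 of 26 proteasome and ubiquitin genes (6 at an unadjusted p under 0.05), 0 of 31 trafficking genes (8), 0 of 27 RNA polymerase I and III genes (6), 0 of 22 glutamine and nucleotide synthesis genes (2), 0 of 21 chromatin regulators linked to RB (4) and 0 of 10 microRNA machinery genes (2). Over all 10259 genes tested 9.45% were called and 2736 had an unadjusted p under 0.05. A second probe of TARBP2, of the last list, was called lower, by a difference of -0.46 (adjusted p = 0.0194). Of 26 ribosome biogenesis genes NOP58 rose by 0.35 and RRP9 and UTP15 fell by 0.52 and 0.45. SNRNP200 rose by 0.73 among 28 spliceosome genes and ID1 by 0.44 among 15 TGF-beta and SMAD genes. RPL13 was the call among 27 ribosomal protein genes, by 0.39 (adjusted p = 0.0457), but its other probe was called lower, by a difference of -0.45 (adjusted p = 0.0464), so its direction is not settled. Of 13 housekeeping genes 3 rose, B2M, HPRT1 (0.61) and GUSB (0.59), beside 5.56% of all genes, with a list median of -0.01. NOP58, RRP9, UTP15, ID1 and RPL13 lost the call in all 6 fits that left out 1 array, SNRNP200 in 5, and HPRT1 and GUSB without control replicate 3 or siRb1 replicate 3.

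Of 11 pluripotency genes tested 2 were called higher and 3 lower, beside 5.56% and 3.89% of all genes. LIN28A and KIT, undetected on all siRb1 arrays, entered the test only through the control arrays. Their calls are thus no independent support for the count of falls. ALDH1A1, an aldehyde dehydrogenase used as a stem cell marker, fell from 14.77, 14.49 and 14.64 to 14.10, 13.47 and 13.67, by a difference of -0.89 ± 0.11 (1.85-fold, adjusted p = 0.00309), and its second probe was called lower too (-0.74, adjusted p = 0.0125). KIT, the stem cell factor receptor, was at least 1.26-fold lower (adjusted p = 0.0104), and LIN28A is described above. SOX9, detected on 1 of 3 control arrays, rose by 1.28 ± 0.27 (adjusted p = 0.0217). MYC (-0.25) and KLF4 (-0.21) were not called.

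POU5F1, which encodes OCT4, had levels of 10.61, 10.47 and 10.66 in control and 11.30, 11.19 and 11.64 in siRb1, a difference of 0.80 ± 0.20 (adjusted p = 0.0415). The groups did not overlap, but the call was lost in 13 of 22 alternatives and in each of the 6 that left out 1 array (adjusted p from 0.0568 to 0.179). A second, dimmer probe gave -0.22 (adjusted p = 0.505), so the direction was not shared by both probes, and processed pseudogenes of POU5F1 are known. On the first probe POU5F1, which no siOct4 array detected, was at least 27.6-fold higher in siRb1 than there (adjusted p = 6.47e-07), and the difference from siCcnf+siNipp1 was -0.23 (adjusted p = 0.392). KIT lost its call without control replicate 3 or siRb1 replicate 3 (adjusted p from 0.00837 to 0.0602), and SOX9 in all such fits but the one without control replicate 2 (0.0238 to 0.0918).

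Of the called genes, 238 had at least 1 other kept probe. Of those 297 other probes, 274 had the same sign as the probe used, 124 were also called in that direction and 2 were called in the opposite one. Detection limited what could be seen at the low end: the lowest detected level was 6.49 to 6.69 across the 6 arrays.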

How the data were processed

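Total RNA was hybridised to Illumina HT-12 arrays, read in GenomeStudio per the submitters' processing notes (no version stated). The authors deposited, per the file headers, for each array the intensity of 47322 probes with their detection p-values, and separately a normalized intensity, made by a method not stated there. GEO's platform table pairs 30102 probes with exactly 1 gene, 8 with several. Signals were processed with neqc (limma 3.58.1, R 4.3.3; background from the detection p-values, offset 16, quantile normalization, log2). Probes with detection p under 0.01 on at least 3 of the 6 arrays were kept (17113). A gene was read by its brightest kept probe. A single limma model of the 12 arrays had group means and the replicate number as a fixed block (6 residual and 3.35 prior degrees of freedom). Tests were two-sided, adjusted by Benjamini-Hochberg over kept probes and called at 0.05.

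The rule for the comparison pairs arrays by replicate number. Deviations from group means correlated at 0.38, 0.44 and 0.34 between same-numbered control and siRb1 arrays and at -0.27 to -0.11 between different numbers. Samples are labelled biological replicates, but separate cultures are not mentioned, so p-values measure a spread that may be in part technical. The number of arrays limits precision. Where no array of the lower group detected a probe, the fold is a bound: the higher group's mean over the mean of the lower group's lowest detected levels, or the probe's own level where higher.

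Named genes were a list of cell cycle and pathway genes, the 15 largest rises and falls among called genes with the same sign in all 3 pairs, and up to 4 called members of each of 43 gene lists (815 genes tested). Other called list members, USP1, TMSB15B, the neighbours of RB1 and lineage markers were added after their values were seen. The members and lists were chosen with earlier results of these data known, so list counts are descriptions, with no set test. Differences between knockdowns were contrasts of the same model. Promoters came from RefSeq (GRCh38.p14). The script was tested on simulated data. Alternatives changed the block, the arrays fitted, background correction, scaling, source of values, filter, probe rule and arrays left out. Figures used Python 3.11.15 and matplotlib 3.10.9. Some items and the results that need them are not reported here.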

Additional observations from a re-analysis of the deposited data

How the results depend on the processing

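The count of calls was the least stable result. Without the replicate block, 613 probes, 274 genes higher and 155 lower were called, and from the 6 arrays alone with no replicate block 529, 227 and 148. With all probes and no filter the counts were 578, 237 and 164. Median scaling called 352 genes higher, 51.6% of its calls against 58.8%, and put the median of all genes at -0.02. Leaving out arrays gave 0 to 848 probes, 0 to 363 genes higher and 0 to 224 lower, with 0 without replicate 3. The fit of the 6 arrays alone with replicate block called 1 E2F-driven G1/S gene, ASF1B (adjusted p = 0.0455 by limma), and the other alternatives called 0. RB1 kept its direction throughout, from -2.03 to -1.69 over the fits that left out arrays, with adjusted p = 0.0817 without replicate 3 and between 9.9e-05 and 0.0383 in the others. It gave no value where detection on all 6 arrays was required, and averaging probes gives no probe count. RPL13 turned to -0.035 when its probes were averaged. In alternatives added after seeing the data (no replicate block and without each replicate), E2F-driven genes higher than in siOct4 numbered 25 to 36 and mitotic genes 31 to 37. Causes of these shifts were not tested. Low signal over background limits genes near 6.5, where normexp with offset 50 gave RB1 as -1.12.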
